A study of Bos taurus and Ovis aries and Capra hircus with 18 samples.

Results

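The longest transcription units in the gene models of cattle, sheep and goat were examined: genes whose outermost exon ends lie at least 800 kb apart on an assembled chromosome. In cattle, 38 of 27607 genes met this rule, on 21 chromosomes and none of them on the X. In sheep, 96 of 26478 genes met it, and in goat 18 of 27271. DMD, RBFOX1 and SGCD are left out by definition, and none of these reached the limit in cattle, where their models span 696389, 213650 and 440708 bases. Of 100 sheep models of this span, 3 assigned to the left-out genes by shared exon lengths were removed and 1 was not on a chromosome. The rule reads spans from the gene models and uses no counts.

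The 6 groups are brain and muscle of adult cattle, adult sheep and adult goats, with 3 libraries in each, labelled A, B and C. All 18 libraries came from frozen, untreated tissue as far as the labels state, and their messenger RNA was captured by its poly(A) tail. Neither brain region nor muscle is named, and breed, sex and exact age are likewise not given in the sources used here. Nothing states that the letters stand for separate animals or tie a brain to a muscle, so every p-value measures only the spread between these samples, which may be technical. Brain and muscle are mixtures of cells, and in such bulk samples fewer cells of a type and less RNA per cell cannot be told apart.

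A gene of this size consists almost wholly of introns, which RNA polymerase must cross before a single transcript is finished and which are then spliced away. Such genes are known for encoding adhesion molecules, receptors and channels of the neuronal membrane, and many are used mainly by neurons. Others encode enzymes that most cells use and lie at common fragile sites, stretches of chromosome that break when replication is slowed.

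The deposited models had this make-up. Cattle members had a median of 21.5 exons against 5 in the 27185 shorter genes on the same chromosomes, and a median of 3493 exonic bases against 1570. Exons made up a median of only 0.370% of a member's span, against 19.4% for a shorter gene. The medians were 20 exons and 0.297% in sheep, and 24.5 exons and 0.563% in goat. The widest cattle gene was CTNNA3 (chromosome 28, bases 22282909 to 24121400 of ARS-UCD1.2), which spans 1838491 bases and keeps 2688 of them in 17 exons. PRKG1, KCNIP4, CSMD3, NRG3 and LRP1B followed, with spans of 1414103, 1326452, 1304324, 1235756 and 1206856 bases. LRP1B has 153 exons and NEGR1, at 1033257 bases, has 7.

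Levels below are CPM, that is counts per 1000000 counts of the library, scaled by the trimmed-mean method, per kilobase of exonic length, so that genes of different length can be set side by side, and per-library values stand in the order A, B and C. Tissue differences are log2 brain over muscle ± standard error from edgeR's quasi-likelihood test on the counts of all genes of a species, positive where brain was higher. To be called, a gene needed an adjusted p below 0.05, after Benjamini-Hochberg adjustment over all genes tested, and a fold of at least 2. Library totals ran from 20730803 to 58514630 counts. Summed levels of 6 neuron markers were 1343 to 2723 in the 9 brain libraries and at most 1.62 in muscle. Muscle fibre markers summed to 13010 or more in every muscle library and to at most 19.0 in brain, so the labelled tissues carried their own markers. One library stood apart: sheep brain C had a mean Spearman correlation of 0.822 with the other sheep brain libraries, against 0.904 and 0.906 for A and B. Its neuron markers summed to 1397, against 2622 and 2194, and its oligodendrocyte precursor markers to 3.79, against 26.1 and 30.5. Those precursor markers summed to 28.76 to 38.18 in sheep muscle, so they were not particular to brain. Endothelium markers were also lowest in C, at 9.71 against 26.16 and 18.35. Astrocyte markers were highest there, at 2966 against 2705 and 2907. Oligodendrocyte markers summed to 1601, against 1736 and 1753, and microglia markers to 83.74, against 74.25 and 88.12. The main sheep counts of called members are given with and without this library.

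In cattle, the long genes were predominantly brain genes. All 38 passed the filter on low counts, 28 of them (73.7%) were higher in brain, 5 (13.2%) were higher in muscle and 5 were not called. Of all 16428 genes tested, 33.9% were called toward brain and 25.3% toward muscle. The median member differed by 6.11 on the log2 scale, against 0.09 for all genes tested. Brain and muscle libraries did not overlap for 36 members, and the same held for 79.4% of all genes. Most of the difference lay on the muscle side: the median member stood at 5.18 in brain, close to the 4.61 of all genes tested, and at 0.0787 in muscle, against 3.57. Members made up 0.130% to 0.155% of the counts of a brain library and 0.0231% to 0.0252% of those of a muscle library. With library totals in place of trimmed-mean scaling, which moved the median of all genes to 0.76, 29 members were higher in brain and 3 in muscle, beside 44.6% and 14.2% of all genes.

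**Figure D1:**
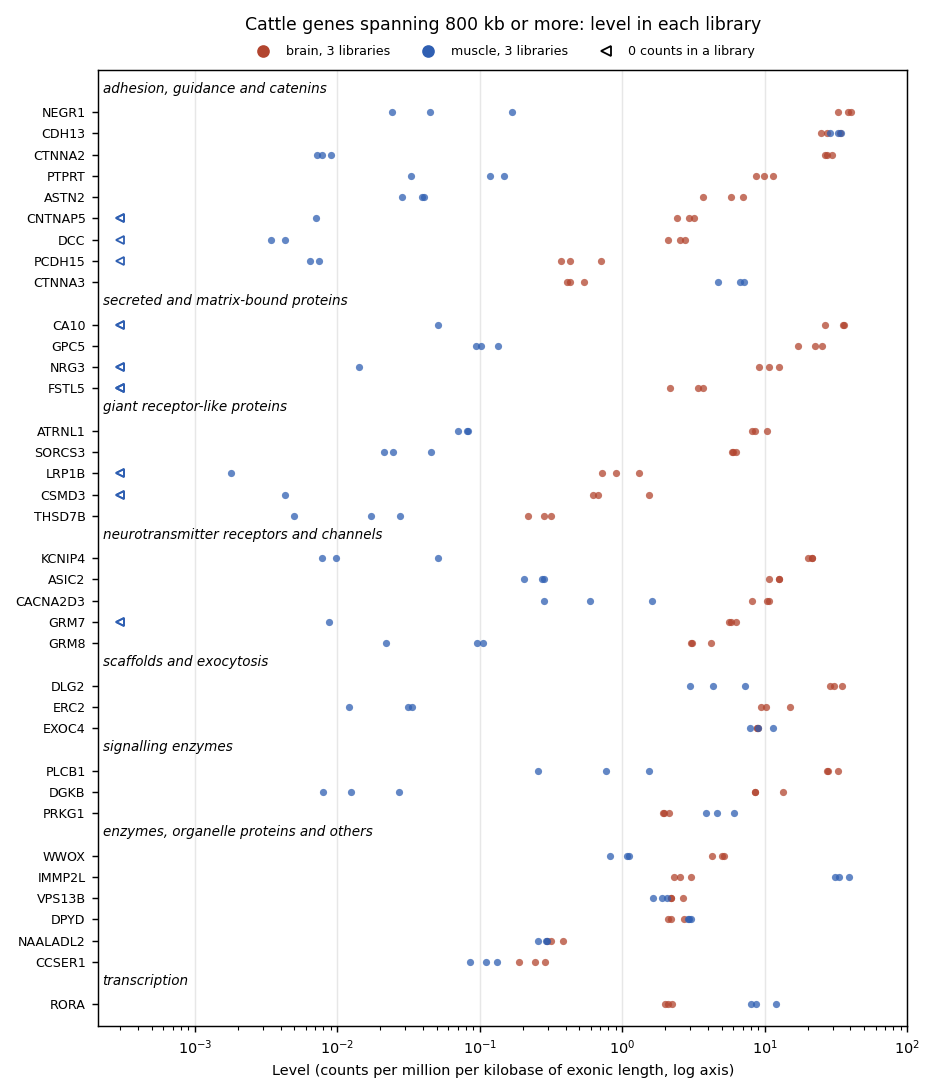
Level of 36 of the 38 cattle members in the 3 brain (red) and 3 muscle (blue) libraries, in CPM per kilobase of exonic length on a log axis, grouped by role; open triangles at the left edge mark libraries with 0 counts. Brain points lie between 0.1895 and 40.2, while muscle points of the same genes spread from 0 counts to 38.8, with IMMP2L, CDH13, RORA and EXOC4 at the top.

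Adhesion and guidance proteins formed the biggest role, with 9 cattle members, of which 7 were higher in brain. CTNNA2, the neuronal alpha-catenin that ties cadherins to actin (chromosome 11, bases 54799681 to 55985486), stood at 27.2, 29.7 and 26.6 in brain and 0.00906, 0.00723 and 0.00783 in muscle, where all libraries together held 3 counts. NEGR1, a glycolipid-anchored adhesion protein of the IgLON family (chromosome 3, bases 72812247 to 73845504), stood at 38.6, 32.6 and 40.2 in brain and 0.169, 0.04502 and 0.0244 in muscle. PTPRT, a receptor-type tyrosine phosphatase, had levels of 11.4, 9.95 and 8.65 in brain and 0.117, 0.0330 and 0.149 in muscle. In each of these genes the lowest brain library lay far above the highest muscle library, and the difference was 8.91 ± 0.39 for NEGR1 (edgeR adjusted p = 2.36e-07) and 6.67 ± 0.40 for PTPRT (edgeR adjusted p = 1.50e-06). ASTN2, an astrotactin that acts in the migration of young neurons, differed by 7.22 ± 0.35. The netrin receptor DCC and the neurexin relative CNTNAP5 were low even in brain, at 2.47 ± 0.331 and 2.85 ± 0.404 (SD, n = 3), and their muscle libraries held 2 counts and 1 count in all. PCDH15, a protocadherin best known from the hair cells of the inner ear, reached 0.506 ± 0.1805 in brain and differed by 6.74 ± 0.63.

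CTNNA3 and CDH13 did not share this pattern. CTNNA3 encodes the alpha-catenin first described in heart, and the closest relative of CTNNA2 in this set. Its level was 0.429, 0.538 and 0.411 in brain and 7.14, 6.71 and 4.67 in muscle, with every muscle library above every brain library and a difference of -3.75 ± 0.25 (edgeR adjusted p = 2.34e-06). CDH13, the cadherin without a cytoplasmic tail (chromosome 18, bases 9350020 to 10154230), was abundant in both tissues, at 33.9, 27.3 and 24.99 in brain and 34.1, 28.9 and 32.9 in muscle. Its libraries overlapped between tissues and the difference of -0.15 ± 0.16 was not called (edgeR adjusted p = 0.407). CDH13 alone supplied 37.6% to 43.7% of all member counts in cattle muscle.

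All 4 secreted or matrix-bound members were higher in brain. CA10, an inactive relative of carbonic anhydrase that binds neurexins, stood at 35.5, 36.1 and 26.6 in brain, and cattle muscle held 2 counts of it. GPC5, a heparan sulfate proteoglycan of the glypican family, stood at 25.4, 22.4 and 17.1 in brain and 0.134, 0.0939 and 0.102 in muscle, a difference of 7.62 ± 0.27 (edgeR adjusted p = 9.56e-08). NRG3, a neuregulin that activates the receptor ERBB4, stood at 12.6, 10.8 and 9.16 in brain, against 1 count in muscle. Brain libraries of all these genes were high. Muscle libraries were near the limit of counting for CA10 and NRG3, while GPC5 was low but measurable there. FSTL5, a follistatin-like secreted protein, was the one cattle member with 0 counts in muscle, and its brain level of 3.403, 2.18 and 3.66 was at least 383-fold higher than the floor of 3 counts over the 3 muscle libraries.

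The 6 giant receptor-like proteins were likewise higher in brain, but at widely different levels. ATRNL1, an attractin-like membrane protein, stood at 10.4, 8.199 and 8.56 in brain and 0.0699, 0.0811 and 0.0825 in muscle. SORCS3, a sorting receptor of the VPS10 family, stood at 5.98, 5.896 and 6.34 and 0.0246, 0.0457 and 0.0213. Both differed far beyond the spread of their libraries, by 6.84 ± 0.21 and 7.58 ± 0.28. LRP1B, of the lipoprotein receptor family, and CSMD3, a chain of complement-control domains, have long messages and reached only 0.906, 0.721 and 1.31 and 0.628, 0.679 and 1.54 in brain, with 1 and 2 counts in muscle. Brain library C was the highest for both. THSD7B, with thrombospondin repeats, reached 0.273 ± 0.0505 in brain.

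Transmitter receptors, channels and their partners made up 5 members, all higher in brain. KCNIP4, a calcium-binding subunit of A-type potassium channels (chromosome 6, bases 40250033 to 41576485), stood at 21.6, 21.6 and 20.3 in brain and 0.00982, 0.00783 and 0.05096 in muscle. ASIC2, an acid-sensing sodium channel, stood at 12.6, 12.6 and 10.8 and 0.276, 0.283 and 0.204. CACNA2D3, an auxiliary subunit of voltage-gated calcium channels, stood at 10.7, 8.103 and 10.4 and 1.62, 0.282 and 0.598, with muscle library A the highest of its group. No library overlapped between tissues for any of these, and the differences were 9.79 ± 0.37, 5.55 ± 0.21 and 3.56 ± 0.54. GRM7 and GRM8, metabotropic glutamate receptors that dampen transmitter release, reached 5.903 ± 0.345 and 3.44 ± 0.668 (SD, n = 3) in brain. GRM7 had 1 count in muscle, while GRM8 was measurable there and differed by 5.47 ± 0.43.

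Among scaffolds, ERC2, an organiser of the presynaptic active zone, stood at 9.39, 10.1 and 15.03 in brain and 0.01202, 0.0336 and 0.0312 in muscle, a difference of 8.75 ± 0.35. DLG2, a scaffold of the postsynaptic density, was among the most abundant members in brain, at 30.8, 34.7 and 28.7, and was also present in muscle, at 7.32, 4.33 and 2.998. Its tissues did not overlap and its difference was 2.69 ± 0.31 (edgeR adjusted p = 7.03e-05). EXOC4, a subunit of the exocyst that tethers secretory vesicles in most cells, stood at 8.78, 8.91 and 8.87 in brain and 7.86, 11.4 and 9.03 in muscle, overlapped, and was not called (-0.09 ± 0.16). Of the signalling enzymes, the phospholipase PLCB1 stood at 32.8, 27.6 and 28.0 in brain and 0.256, 1.55 and 0.775 in muscle, and the diacylglycerol kinase DGKB at 8.53, 8.49 and 13.5 and 0.00788, 0.0126 and 0.0272. PLCB1 was the largest single source of member counts in every cattle brain library. PRKG1, the cyclic GMP-dependent protein kinase of smooth muscle relaxation, ran the other way, at 1.95, 2.11 and 1.93 in brain and 4.61, 3.89 and 6.12 in muscle (-1.29 ± 0.21, edgeR adjusted p = 0.000637).

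The 7 enzymes, organelle proteins and others were mixed: 2 were higher in brain, 2 in muscle and 3 were not called, with a median difference of 0.24. IMMP2L, a peptidase of the inner mitochondrial membrane (chromosome 4, bases 56808963 to 57722182), stood at 2.31, 3.02 and 2.55 in brain and 38.8, 31.3 and 33.4 in muscle, the highest mean muscle level of any cattle member. All muscle libraries lay above all brain libraries, by -3.71 ± 0.20 on the brain over muscle scale (edgeR adjusted p = 7.93e-07). WWOX, an oxidoreductase at a fragile site, stood at 5.01, 5.22 and 4.29 in brain and 0.818, 1.12 and 1.07 in muscle (2.27 ± 0.21). CCSER1 was barely called, at 1.12 ± 0.35 (edgeR adjusted p = 0.01804), and was not called without brain library A or without muscle library A (0.99 and 0.97). DPYD, which starts the breakdown of pyrimidines, VPS13B, a lipid-transfer protein of the Golgi, and NAALADL2, a peptidase-like protein, differed by -0.33 ± 0.16, 0.34 ± 0.15 and 0.24 ± 0.31 and were not called. RORA, a nuclear receptor that acts in the clock and in metabolism, was the only transcription factor, at 2.23, 2.09 and 2.002 in brain and 7.96, 12.1 and 8.74 in muscle (-2.19 ± 0.19, edgeR adjusted p = 1.48e-05). With scaling by library totals alone, PRKG1 was no longer called, at -0.62, while CTNNA3, IMMP2L and RORA still were.

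In sheep, 93 of the 96 members passed the filter on low counts; DCC, SPAG16 and HPSE2 did not. Of those tested, 67 (72.0%) were higher in brain, 9 (9.68%) were higher in muscle and 17 were not called, where 28.5% and 19.2% of all 15616 genes were. The median difference was 5.25, against 0.17 for all genes, and the tissues did not overlap for 82 members, against 66.1% of all genes. Without sheep brain library C, 96 members were tested. Of these, 69 (71.9%) were higher in brain and 10 (10.4%) in muscle, beside 31.7% and 24.3% of all genes. With scaling by library totals alone, which moved the median of all genes to 1.11, 69 members were higher in brain and 3 in muscle, beside 45.5% and 9.05% of all genes. Names of sheep and goat genes are those of the cattle gene with which they share exon lengths, and 80 sheep members have one.

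The most abundant sheep member in brain was CTNND2, the delta-catenin of dendrites, at 95.6, 118 and 48.4 in brain and 0.0832, 0.425 and 0.07696 in muscle. DPP6, an auxiliary subunit of A-type potassium channels, stood at 49.4, 42.1 and 65.7 in brain and 0.9096, 0.654 and 0.422 in muscle. NEGR1 stood at 58.7, 36.9 and 5.65 in brain and FHIT, a hydrolase at the most studied fragile site, at 15.98, 27.7 and 51.6. Library C was the lowest for CTNND2 and NEGR1 and the highest for DPP6 and FHIT, and every brain library stayed above every muscle library. The differences were 8.79 ± 0.94, 6.30 ± 0.44, 8.60 ± 1.09 and 3.70 ± 0.58. CTNNA2, DPP10, GRIA4, LRRTM4, TMEM132D, PCDH15, GABRG3 and KHDRBS2 had 0 counts in all 3 sheep muscle libraries. Against the floor of 3 counts, CTNNA2 was at least 3038-fold higher in brain, the potassium channel partner DPP10 at least 1162-fold, and the glutamate receptor subunit GRIA4 at least 950.3-fold. DLG2 was the widest model of the series, at 2993898 bases, and stood at 25.4, 32.5 and 3.14 in brain and 1.88, 1.14 and 1.96 in muscle. GPC5 (2012749 bases) and the guidance receptor ROBO2 (1897878 bases) were next in width among brain genes with a symbol besides DPP10 (1995884 bases), and stood at 17.1 ± 9.59 and 11.1 ± 6.73 (SD, n = 3) in brain. The sixth widest model, ENSOARG00020010374, has no symbol, spans 1828826 bases and reached 3.01 ± 0.453 in brain, with 3 counts in muscle.

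Among the 9 sheep members higher in muscle were PDE4D, LAMA2, DPYD, RORA, CTNNA3, CDH13, IMMP2L and RBMS3. PDE4D, a phosphodiesterase that degrades cyclic AMP, stood at 3.99, 4.07 and 0.466 in brain and 22.4, 28.2 and 43.5 in muscle. LAMA2, the laminin chain of the sheath around muscle fibres, stood at 1.597, 1.33 and 1.51 and 13.97, 15.7 and 14.99. CDH13 stood at 16.1, 21.8 and 13.6 and 71.8, 64.2 and 72.2. Muscle libraries were higher throughout in these genes, by -3.46 ± 0.81, -3.33 ± 0.26 and -2.02 ± 0.28 on the brain over muscle scale (edgeR adjusted p = 0.0115, 0.000141 and 0.00127). CTNNA3 stood at 1.06, 0.982 and 0.328 in brain and 3.13, 2.198 and 4.40 in muscle, and RORA at 2.03, 2.04 and 0.241 and 10.6, 8.39 and 9.26. RBMS3, an RNA-binding protein, was the weakest of these calls (edgeR adjusted p = 0.0484). Without muscle library C, 5 members (5.21%) were higher in muscle, beside 14.1% of all genes. Without muscle library A or B, 6 members were, beside 14.1% and 14.0% of all genes. CTNNA3, RORA and RBMS3 were among those no longer called without muscle library C. Their differences there were -1.78, -2.74 and -1.69, close to the -2.04, -2.71 and -1.65 with all libraries. Scaling by library totals alone kept only PDE4D, LAMA2 and CDH13.

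Sheep brain C carried fewer reads from long genes than its partners. Members held 0.492% and 0.469% of the counts of sheep brain A and B and 0.176% of those of C, still above the 0.0609% to 0.0793% of sheep muscle. Of 79 tested members with a mean brain level of at least 1, 68 (86.1%) were lower in C than in both other libraries and 8 were higher, ASIC2, DPP6, FHIT, IMMP2L, NRG1, ULK4 and WWOX among them. Among 13341 shorter genes at that level, 47.6% were lower and 46.7% were higher. The ratio of C to the mean of A and B fell with span: its median log2 was 0.68 for genes under 10 kb, 0.01 for 10 to 50 kb, -0.95 for 50 to 200 kb, -1.17 for 200 to 400 kb, -1.55 for 400 to 800 kb and -1.44 for members. It also fell with exonic length, from 0.45 below 1 kb to -0.95 at 8 kb or more over all genes, and from -1.36 for 32 members of 2 to 4 kb to -1.72 for 22 members of 4 to 8 kb. No other library of the 18 had a median beyond 0.56 in either direction in any span class. Neuron markers were lower in C as well, as given above, and the part of either in the level of long genes was not tested.

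**Figure D2:**
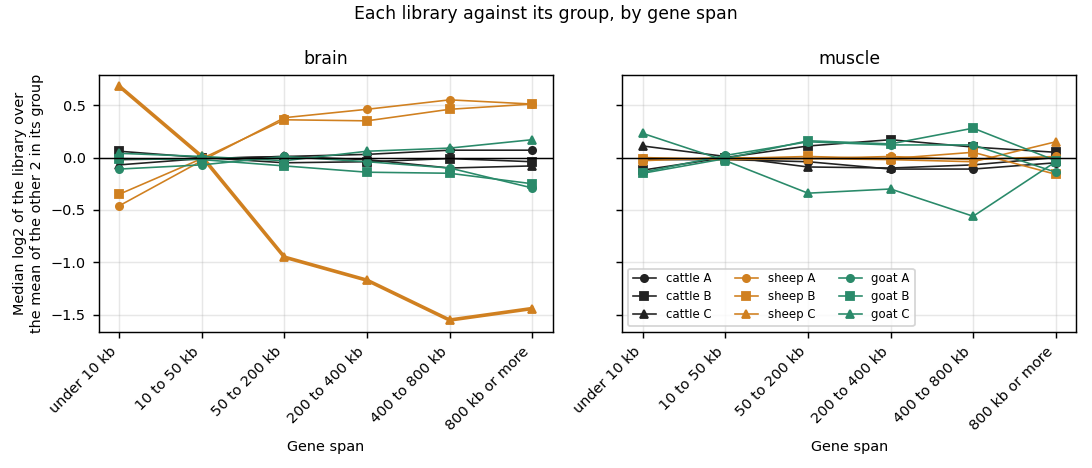
Median log2 ratio of each library to the mean of the other 2 of its group, by gene span class, for brain (left) and muscle (right), over genes with a mean level of at least 1 in that tissue and with 0.1 added to each level. Sheep brain C (heavy line) falls from 0.68 for the shortest genes to -1.55 and -1.44 for the longest, while the other 17 libraries stay within 0.56 of 0.

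In goat, all 18 members were tested and 12 (66.7%) were higher in brain, 2 (11.1%) were higher in muscle and 4 were not called, where 31.4% and 23.2% of all 15825 genes were. The median difference was 5.57, against 0.12 for all genes, and the tissues did not overlap for 15 members, against 68.1% of all genes. With scaling by library totals alone, which moved the median of all genes to 0.86, the counts were 13 and 1, beside 44.9% and 12.8% of all genes. DLG2 was by far the most abundant, at 45.6, 38.8 and 48.1 in brain and 3.71, 2.79 and 7.14 in muscle, and it supplied 45.9% to 54.2% of the members' counts in brain. ATRNL1 stood at 13.6, 10.2 and 10.5 in brain and 0.369, 0.214 and 0.189 in muscle, and CACNA2D3 at 6.18, 13.3 and 11.5 and 0.575, 0.809 and 0.775. Brain libraries were the higher in all of these, by 3.28 ± 0.38, 5.46 ± 0.37 and 3.84 ± 0.37. LRP1B, DCC and the RNA-binding protein KHDRBS2 had 0 counts in goat muscle and were at least 187-fold, 154-fold and 70.2-fold higher in brain. CSMD3 was the widest goat model, at 1391298 bases, and reached 1.38 ± 0.389 (SD, n = 3) in brain, while CCSER1, the next, stood at 0.276 ± 0.0815 in brain and 0.133 ± 0.04196 in muscle and was not called.

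DPYD and CDH13 were the 2 goat members higher in muscle. DPYD stood at 2.301, 1.44 and 2.32 in brain and 9.12, 10.6 and 9.59 in muscle (-2.27 ± 0.27, edgeR adjusted p = 0.000103), and CDH13 at 3.94, 5.41 and 5.48 and 10.1, 8.52 and 12.5 (-1.07 ± 0.25, edgeR adjusted p = 0.00513). Neither overlapped between tissues, but CDH13 was not called without brain library A, without muscle library C or with scaling by library totals alone (-0.92, -0.94 and -0.31). CTNNA3 was not called in goat, where brain library A stood at 2.56 and the others at 0.564 and 0.557, against 2.99, 2.63 and 2.39 in muscle. Without that brain library the difference was -2.24 and was called. Oligodendrocyte markers were also far higher in that library, with a summed level of 32580 against 5208 and 5522, and their part in the CTNNA3 level was not tested.

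Members were then set against shorter genes. The share of cattle genes called higher in brain was 31.6% under 10 kb, 29.8% from 10 to 50 kb, 38.01% from 50 to 200 kb, 53.8% from 200 to 400 kb, 70.5% from 400 to 800 kb and 73.7% for members. The share higher in muscle went from 29.3% in the shortest class to 8.76% from 400 to 800 kb, and was 13.2% for members. In goat the share higher in brain went from 26.8% to 65.4% over the 5 shorter classes and was 66.7% for members. In sheep it was 29.9% under 10 kb, 26.7% from 50 to 200 kb, 51.1% from 400 to 800 kb and 72.0% for members. All sheep values by span class include brain C, whose ratio to A and B fell with span, and are not given without it. In cattle and goat the class just below the limit had nearly the same share of brain genes as the members. The median difference went on rising, from 3.70 at 400 to 800 kb to 6.11 for members in cattle, from 1.89 to 5.25 in sheep and from 2.78 to 5.57 in goat. In cattle the median brain level of tested genes had no clear trend with span, at 3.87 to 5.50 over the classes, while muscle medians went from 3.30 under 10 kb and 4.97 from 10 to 50 kb to 1.28, 0.375 and 0.0787 in the 3 longest classes. In sheep and goat the brain medians also went down, from 9.91 and 9.68 under 10 kb to 4.42 and 1.93 for members, and the muscle medians went from 6.73 and 8.35 to 0.188 and 0.1497. A level of 1 in muscle was reached by 29.0% of cattle members, 29.2% of sheep members and 27.8% of goat members, against 79.0%, 82.3% and 77.8% in brain. Of all genes under 10 kb, tested or not, 25.99%, 30.6% and 35.9% reached it in muscle and 27.5%, 33.7% and 37.1% in brain, and from 400 to 800 kb 34.1%, 52.2% and 39.02% did in muscle.

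**Figure D3:**
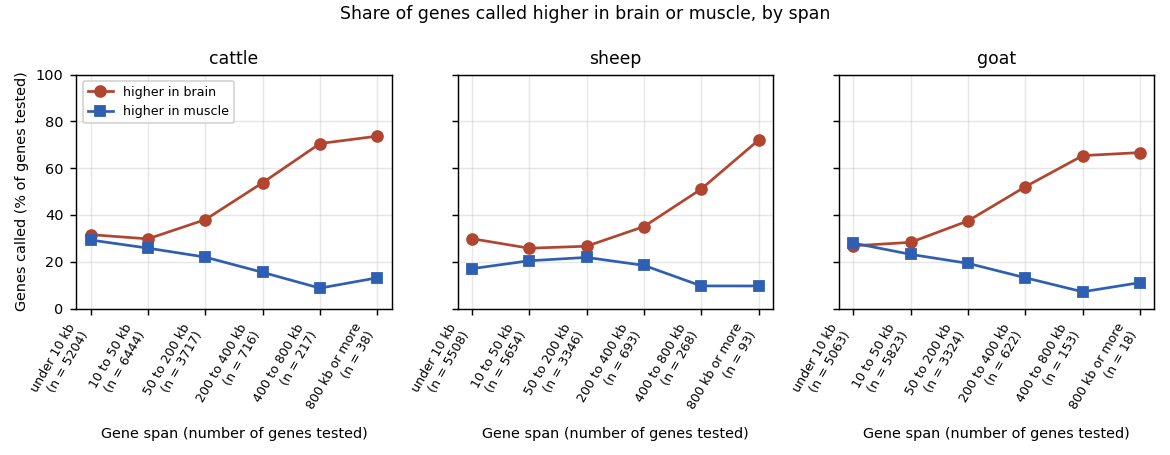
Percent of tested genes called higher in brain (red circles) and higher in muscle (blue squares) in 6 classes of gene span, in cattle, sheep and goat, with the number of genes tested under each class. The brain share is highest in the longest class, at 73.7%, 72.0% and 66.7%. The muscle share is below the brain share in every class except goat genes under 10 kb (27.99% against 26.84%). Sheep values include brain library C.

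Just inside the limit in cattle lay CDH13, VPS13B, EXOC4 and CNTNAP5, with differences of -0.15, 0.34, -0.09 and 10.05. Just outside lay RBMS3 at 795145 bases (0.52), FHIT at 785789 (3.96), DPP6 at 783667 (9.75) and the calcium-activated potassium channel gene KCNMA1 at 770872 (1.14). In sheep, LRBA, RBMS3, FHIT and EXOC4 lay just inside, with 0.32, -1.65, 3.70 and -0.02, and FRMPD4, RNF180, ATRNL1 and MARCHF1 just outside, the first 3 with 6.83, 0.91 and 4.47 and MARCHF1 untested. In goat, KHDRBS2, ATRNL1, RBMS3 and DCC lay just inside, and DPP10 and LRBA were among those just outside, with 10.77 and 0.50.

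Long genes were also compared with shorter members of their own families, in 17 lists of related genes of which 14 hold a long gene in cattle. Over all lists, brain was the higher tissue for 25 of 35 long genes (71.4%) and muscle for 5. Among shorter relatives, 199 of 258 (77.1%) were higher in brain and 19 in muscle. Of all cattle genes tested, 33.9% were called toward brain and 25.3% toward muscle, and the lists were chosen with earlier results known. The difference between long genes and shorter relatives was not tested. Among glutamate and GABA receptors, GRM7 and GRM8 were higher in brain, and so were all 24 shorter receptor genes, down to GRIN1 at 17.1 kb, with a level of 116 in brain and 0.0349 in muscle. Among neurexins and their relatives, CNTNAP5 and all 6 shorter genes were higher in brain. Of the contactins and IgLON proteins, NEGR1 and all 9 shorter genes were higher in brain, NTM at 44.3 and LSAMP at 25.4 among them. Of the catenins and cadherins, 2 of 4 long and 17 of 20 shorter genes were higher in brain and 1 at each length was higher in muscle: CTNNA3 and, among the shorter, CDH15, the cadherin of muscle precursor cells at 19.2 kb, at 6.40 in muscle against 0.0169 in brain. The list of enzymes and others at fragile sites was mixed at both lengths as well, with 2 of 8 long and 4 of 9 shorter genes higher in brain, 2 and 1 higher in muscle, and medians of 0.07 and -0.07. Transcription and RNA factors held RORA alone among long genes and 32 shorter ones, 16 higher in brain and 4 in muscle. In the neuregulin list, NRG3 was higher in brain, as were 4 of 7 shorter genes, and EGFR was higher in muscle at 8.34 against 0.550. Among channels and their partners, 3 of 3 long and 24 of 30 shorter genes were higher in brain, and among synaptic scaffolds 2 of 2 and 17 of 21. The sarcoglycan and dystrophin-linked list had no long gene in cattle, and 6 of its 11 genes were higher in muscle, LAMA2 (403 kb in cattle) at 7.16 against 0.712.

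Which genes count as long depended on the species' gene models. Of the 38 cattle members, 36 had a partner in sheep, 33 of them of 800 kb or more, and 35 had a partner in goat, of which only 16 were that long. In all, 14 were long in all 3 species. Goat models were the shortest: NRG3 spans 1236 kb in cattle, 1369 kb in sheep and 49.0 kb in goat, WWOX 930 kb, 1202 kb and 10.9 kb, and KCNIP4 1326 kb, 1312 kb and 245 kb. Conversely, 60 of 93 sheep members with a cattle partner were shorter in cattle, with a median of 352 kb there, ROBO1 at 149 kb and NRG1 at 122 kb among them. In cattle, 58 of these were tested, with 47 called toward brain and 3 toward muscle, beside 33.9% and 25.3% of all cattle genes tested, and 53.8% toward brain for all those of 200 to 400 kb and 70.5% for those of 400 to 800 kb. The tissue difference could be alike where the models were not: WWOX differed by 2.27 in cattle, 2.10 in sheep and 2.55 in goat, and NRG3 was close to absent from muscle in each species, with 1 count in each.

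**Figure D4:**
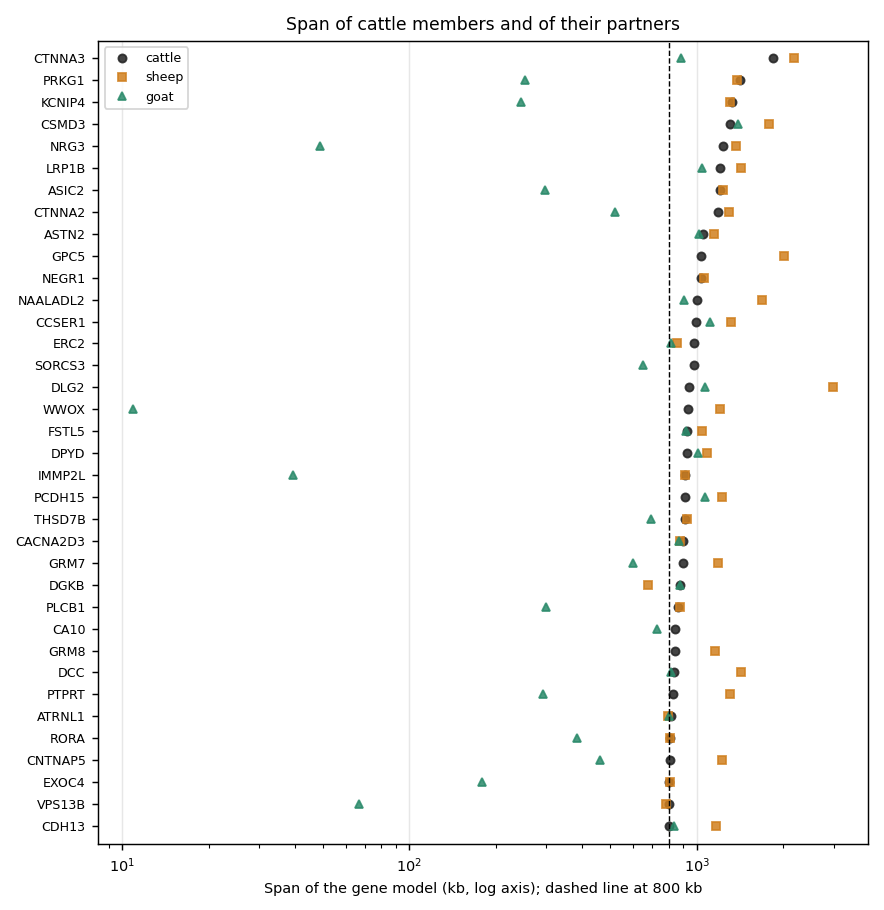
Span of the deposited gene model in kb (log axis) for 36 of the 38 cattle members and their partners in sheep and goat, with a dashed line at 800 kb. Sheep models are mostly as long as or longer than those of cattle, while many goat partners fall short of the line, down to 10.9 kb for WWOX.

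Of the cattle members, 31 were tested with a partner in all 3 species. Of these, 20 were higher in brain in all 3 species, 2, RORA and IMMP2L, were higher in muscle in all 3, and 3, EXOC4, NAALADL2 and VPS13B, were called in none. Of all 11246 genes tested with a partner in all 3 species, the shares were 19.9%, 11.9% and 27.9%. The goat partner of IMMP2L is a piece of 2 exons and 243 bases matched by 1 shared exon length, so its identity is less certain. It stood at 7.38, 8.51 and 11.5 in brain and 44.2, 62.6 and 39.0 in muscle, and IMMP2L of sheep at 6.53, 6.29 and 6.94 and 19.3, 20.3 and 32.9. The partners of PRKG1 were higher in muscle in goat (-2.89) and not called in sheep (-1.86 ± 0.71), where the difference of -1.39 was called without brain library C.

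**Figure D5:**
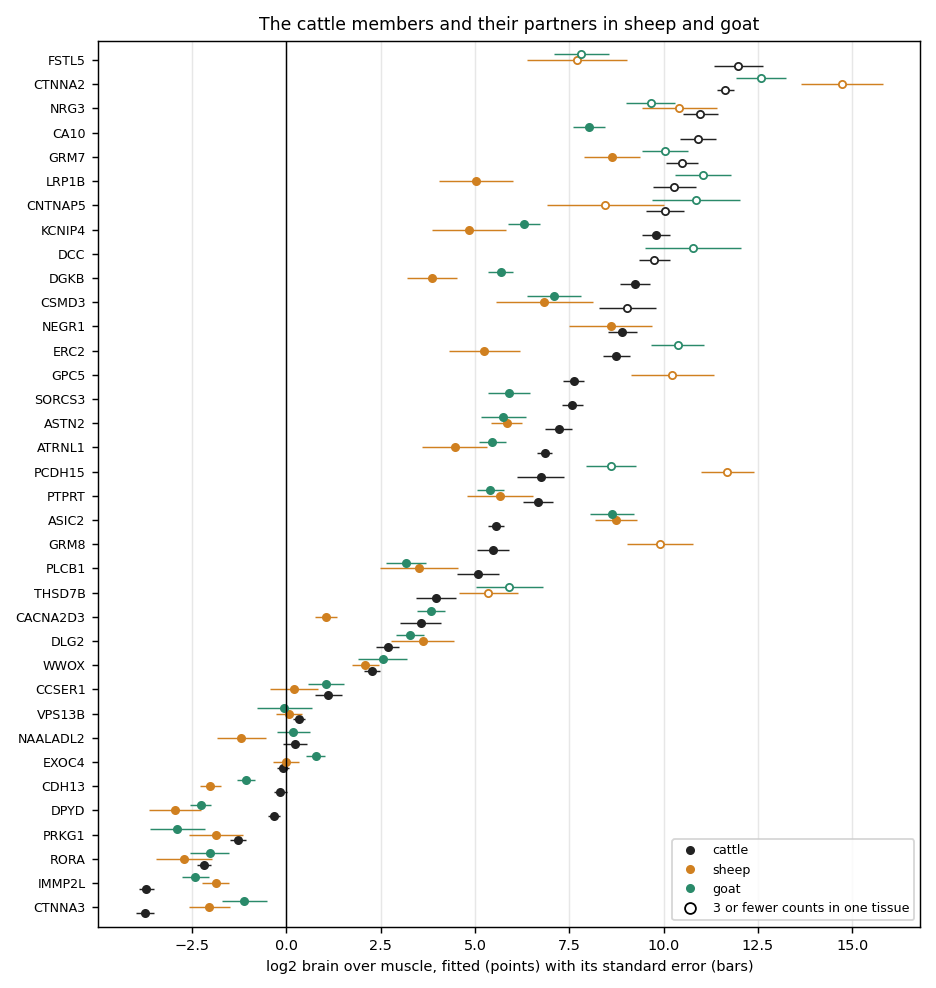
Fitted log2 brain over muscle with its standard error for 36 of the 38 cattle members (black) and their partners in sheep (orange) and goat (green), sorted by the cattle value; open points have 3 or fewer counts in one tissue, so their size depends on the fit. Most genes lie right of 0 in every species, and CTNNA3, IMMP2L, RORA, PRKG1, DPYD and CDH13 lie left of it in all 3. DPYD and CDH13 are close to 0 in cattle, where neither was called.

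Whether a tissue difference itself differed between species was tested as the interaction of species with tissue, over 12297 genes matched in all 3 species, 33 of them cattle members. Cattle and sheep differed for 12 members (36.4%), where 19.9% of all matched genes did. Cattle and goat differed for 5 (15.2%), beside 13.4%, and sheep and goat for 3 (9.09%), beside 7.34%. These comparisons share libraries, and the last 2 shares are near those of all genes. Without sheep brain C, all 12 members still differed between cattle and sheep, and 14 did in all (42.4%, beside 22.5% of all matched genes). Without cattle muscle A, 8 did (24.2%, beside 15.8% of all matched genes).

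DGKB had a wider gap between tissues in cattle than in sheep or goat, by 5.25 ± 0.74 (edgeR adjusted p = 0.000246) and 3.48 ± 0.74 (edgeR adjusted p = 0.00578) on the log2 scale. Its muscle level was 0.0159 in cattle, 0.305 in sheep and 0.159 in goat, while brain stood at 10.2, 4.46 and 8.23. KCNIP4 showed the same order, with 4.82 ± 1.005 (edgeR adjusted p = 0.00365) and 3.42 ± 1.09 (edgeR adjusted p = 0.0475). The KCNIP4 difference between cattle and goat was not called in 11 of the 12 fits that left out 1 library, at 2.99 to 3.65 (edgeR adjusted p = 0.0535 to 0.116). The muscle level of KCNIP4 was 0.0229 in cattle, mostly from library C, 0.503 in sheep and 0.170 in goat. Cattle muscle levels of DGKB and KCNIP4 were low, so the sizes of their differences between species are uncertain. ASIC2 ran the other way, with -3.30 ± 0.61 (edgeR adjusted p = 0.00170) and -3.18 ± 0.67 (edgeR adjusted p = 0.00542): its muscle level was 0.254 in cattle and 0.0325 and 0.0268 in sheep and goat, at brain levels of 11.99, 14.47 and 11.02. For these 3 genes the muscle levels of the species, each scaled on its own, lay further apart than the brain levels. CDH13 and DPYD were called higher in muscle in sheep and goat and not in cattle. The gap differed between cattle and sheep by 1.74 ± 0.32 (edgeR adjusted p = 0.00176) and 2.51 ± 0.61 (edgeR adjusted p = 0.009199). Between cattle and goat, the CDH13 and DPYD values of 0.84 ± 0.32 and 1.85 ± 0.61 were not called (edgeR adjusted p = 0.0951 and 0.0522). IMMP2L was further toward muscle in cattle, by -1.96 ± 0.40 (edgeR adjusted p = 0.00288) and -1.38 ± 0.40 (edgeR adjusted p = 0.0292), but leaving out any 1 of 7 libraries ended the call against goat, at -1.17 to -1.41. CTNNA3 was further toward muscle in cattle than in goat by -2.73 ± 0.75 (edgeR adjusted p = 0.0232), and without goat brain A this was -1.56 and not called (edgeR adjusted p = 0.0991), nor was it called without cattle brain A or C (-2.69 and -2.64). CACNA2D3 had a muscle level of 4.31 in sheep against 0.833 in cattle and 0.720 in goat, with differences of 2.39 ± 0.62 (edgeR adjusted p = 0.0131) between cattle and sheep and -2.74 ± 0.63 (edgeR adjusted p = 0.0168) between sheep and goat.

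Other genes can lie inside a member, and reads in an intron of the member are not counted for it. In cattle, 61 gene rows lay wholly within a member's span, 18 of them inside SORCS3. Of these, 19 were tested, 10 were higher in brain and 1 in muscle, beside 33.9% and 25.3% of all cattle genes tested. Most of the tested rows, and most of those higher in brain, lay inside SORCS3, so these counts lean on 1 gene model. That model spans 978 kb in cattle and 649 kb in goat. Only LRP1B shared exonic bases with another row, 99 of them. Strand-specific counting is not stated, so reads of an overlapping antisense transcript could not be told from those of the member.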

How the data were processed

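Brain and muscle messenger RNA of adult cattle, sheep and goats was sequenced in 3 libraries per group. The submitters' processing notes name Trimmomatic 0.39, STAR 2.7.6, featureCounts and the cattle build ARS-UCD1.2. Builds for sheep and goat, strandedness and the treatment of reads with several placements are not stated in those notes, the labels or the file headers. The deposited values, per the file headers, are raw read counts per gene from featureCounts, with exon coordinates and exonic length. The exonic length column was used as deposited to scale levels. Groups come from the sample titles, and no library was left out.

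The members and the gene lists were chosen with earlier results of these data known. Span was the largest exon end minus the smallest exon start. Cattle symbols came from RefSeq models of a later build by position: the shared stretch had to be 0.5 or more of the union, with no rival model above 0.5 of that score. DLG2 and LRP1B, whose overlaps were only 0.404 and 0.262, were named because 0.95 or more of the shorter model lay inside the longer one and 1 end agreed within 10000 bases. Partners in the other species were found from exon lengths, first by 2 or more shared pairs of adjacent exons, then, for genes lying among partners already found, by 1 shared exon. The first step gave 65 of the 93 partners of sheep members and 15 of 18 in goat.

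Counts of all genes of a species were tested in edgeR 4.0.16 (robust quasi-likelihood, R 4.3.3) after filterByExpr and TMM scaling, and the species by tissue interaction used all 18 libraries. On simulated counts of 16194 cattle, 15453 sheep and 15644 goat genes, only 200 genes per species were changed. The tissue test recovered 100.0%, 98.0% and 99.0% of 32-fold changes and 89.8%, 20.0% and 79.8% of 4-fold changes. Most simulated 4-fold changes were thus missed in sheep. Of the calls made in the simulations, 7.39%, 9.92% and 6.32% were false. Far more genes were called in the real data, in sheep 28.5% toward brain and 19.2% toward muscle. These rates therefore need not hold for the tests reported here. Alternatives were RLE scaling, library totals alone, DESeq2 1.42.0, no filter beyond 1 count, no fold threshold, a replicate block, a span of at least 1 Mb, first-step partners only, and leaving out each library. Named genes were the called members of highest level per species and direction, the widest, those nearest to 800 kb, those higher in muscle in cattle, those of the interaction test, and in each list those of largest difference. Members that lost a call under an alternative, and others given to describe a role, a library or a gene model, were named after their values were seen. Some genes that enter the counts are not reported here by name, nor drawn singly in the figures. A fold against 0 counts is a lower bound at a floor of 3 counts over the group and covers counting error only. Library totals of 20730803 to 58514630 counts limit precision mainly for members near 0 counts in muscle.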

Additional observations from a re-analysis of the deposited data

Results flagged for a closer look

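The results here were picked out because the brain over muscle difference of a cattle member differed between species by edgeR's interaction test, after adjustment over all matched genes. Values are log2 differences of differences, first species minus second, and no cause was tested. Between cattle and sheep they were 5.09 for LRP1B, 2.51 for DPYD, 5.25 for DGKB, -1.96 for IMMP2L and 4.82 for KCNIP4. Further members were CDH13 at 1.74, ASIC2 at -3.3, CACNA2D3 at 2.39, ERC2 at 3.38, PCDH15 at -5.07 and ATRNL1 at 2.27. LRP1B had 1 count in cattle muscle and PCDH15 had 0 in sheep muscle, so the size of those values depends on the fit. DGKB and KCNIP4 were also low in cattle muscle, at 0.0159 and 0.0229, which leaves the size of their values uncertain. Of the 12 fits that left out 1 library, the ATRNL1 call was lost in 9 (2.15 to 2.37), those of LRP1B and PCDH15 in 3 each and that of ERC2 in 2. Between cattle and goat they were 3.48 for DGKB, -1.38 for IMMP2L, 3.42 for KCNIP4, -3.18 for ASIC2 and -2.73 for CTNNA3. Between sheep and goat they were -2.74 for CACNA2D3 and -5.16 for ERC2. ERC2 had 1 count in goat muscle, and its call was lost in 8 of the 12 fits that left out 1 library (-4.64 to -7.72). Between cattle and goat, such fits lost the calls of KCNIP4 in 11, IMMP2L in 7 and CTNNA3 in 3.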

How the results depend on the processing

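Over 2079 values of single members under an alternative, 1951 kept their side of the call, 119 lost a call, 9 gained one and 0 changed sign. With a span of at least 1 Mb, fewer genes qualified, with 13 tested in cattle, 58 in sheep and 7 in goat. Of these, 9 (69.2%), 44 (75.9%) and 5 (71.4%) were higher in brain, beside 33.9%, 28.5% and 31.4% of all genes. Higher in muscle were 3 (23.1%), 4 (6.90%) and 1 (14.3%), beside 25.3%, 19.2% and 23.2% of all genes. The cattle share toward muscle was thus near that of all genes. With library totals alone, members higher in muscle numbered 3 in cattle, 3 in sheep and 1 in goat. That scaling moved the share of brain calls among all called genes from 57.3% to 75.9% in cattle, 59.8% to 83.4% in sheep and 57.5% to 77.8% in goat, and among members from 84.9% to 90.6%, 88.2% to 95.8% and 85.7% to 92.9%. Leaving out each library in turn gave 5 to 10 sheep members higher in muscle, with 5 without muscle C (beside 14.1% of all genes). In goat it gave 1 to 2, with 1 without muscle C (beside 24.1%). Between cattle and sheep it gave 8 to 14 members whose tissue difference differed, with 8 without cattle muscle A (beside 15.8% of all matched genes). The range was 2 to 4 between cattle and goat and 1 to 4 between sheep and goat. The count for cattle and goat fell to 2 without cattle brain A or C, beside 9.005% and 10.3% of all matched genes. It fell to 3 without cattle muscle A, goat brain A or C, or goat muscle A or C, beside 9.75% to 11.4%. With all libraries the share of all matched genes was 13.4%. The count for sheep and goat fell to 1 without sheep muscle B or C, goat brain C or any goat muscle library. In those fits the share of all matched genes was 3.76% to 5.48%, against 7.34% with all libraries. With a replicate block the interaction counts were 3 for cattle and goat and 1 for sheep and goat, beside 8.23% and 2.57% of all matched genes. With first-step matches alone they were 2 and 1, over 20 members in place of 33, beside 13.1% and 6.08%. Same-letter libraries did not deviate together in every pair (correlations -0.164 to 0.203), so the letters were not taken as pairs, though each sheep brain library correlated best with the muscle library of its own letter. The replicate block gave 27 and 5 members in cattle, 64 and 8 in sheep, and 12 and 3 in goat. Beside these stood 33.6% and 25.1%, 25.1% and 18.2%, and 30.5% and 21.95% of all genes. For cattle and sheep it gave 11, beside 14.1% of all matched genes. Among calls it ended were those of CCSER1 in cattle (1.11, edgeR adjusted p = 0.0593), of PLCB1, CACNA2D3 and RBMS3 in sheep, and of the differences between species for IMMP2L (-1.39) and CTNNA3 (-2.31) in cattle and goat, PCDH15 (-5.04) in cattle and sheep and ERC2 (-5.55) in sheep and goat. It called CTNNA3 in goat (-1.50, edgeR adjusted p = 0.0484). The causes of these changes were not tested. Depth limits the muscle level of members with 3 or fewer counts.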
